A study of Homo sapiens with 15 samples.

Results

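The H3K4me3 loops of LNCaP cells were compared between 72 h of dihydrotestosterone (DHT) and vehicle. LNCaP is an established prostate cancer cell line that grows in response to androgen. All cells were kept for 3 days in phenol red-free medium with charcoal-stripped serum, which is poor in steroids. The 0 m library came from cells given ethanol (EtOH), the vehicle, and the 72 h library from cells given 10 nM DHT. Every one of the 278491 loops called in the H3K4me3 data was taken, out of 505995 different loops in the series, and each was counted once. Of these, 68822 were also called in the H3K27ac data and 209669 were not. Each side of the comparison is 1 library (2 of the 15 labelled samples of the series), so no difference below has a replicate check and no p-value is given.

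Trimethylation of lysine 4 of histone H3 (H3K4me3) marks the nucleosomes around active promoters. In H3K4me3 HiChIP, chromatin is fixed and cut, neighbouring DNA ends are ligated, and fragments carrying the mark are pulled down and sequenced as read pairs. The contact of a loop therefore depends on how often its ends meet and on how much of the mark they carry. Androgens such as DHT act largely through enhancers, which reach promoters through such contacts. The work of the study asked how these contacts change over time after androgen.

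Contact is a signal scaled between time points (by TMM, a trimmed mean of log ratios), and 1 read pair was worth 0.282 at 0 m and 0.275 at 72 h. The loops held 1820771 read pairs at 0 m and 1693072 at 72 h, with a median of 3 per loop in both libraries. Values of single loops are therefore coarse, and sums over loops are given with exact 95% intervals of the ratio of read pairs, which cover counting error only. Cell identity was checked on marker promoters. Of 15 prostate luminal markers, 12 held at least 100 read pairs over both libraries, among them KLK3, HOXB13, TMPRSS2 and KRT8. None of 8 basal, 8 stromal and 8 leukocyte markers did, and these lists summed to 88 and 89, 74 and 73, and 25 and 24 read pairs at 0 m and 72 h. No loop ended at the promoters of KRT5, KRT14, TP63 or PTPRC.

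Base composition went with the change at 72 h, as given below. To show what the promoters at both ends of the ranking look like, the 250 bases before the start are given for 2 of the 12 with the largest fall and 2 of the 12 with the largest rise, chosen among windows that overlap no annotated exon. They were read from GRCh37 (hg19), the build of the files, on the strand of the gene. CpG dinucleotides are in capitals.
ZDHHC8: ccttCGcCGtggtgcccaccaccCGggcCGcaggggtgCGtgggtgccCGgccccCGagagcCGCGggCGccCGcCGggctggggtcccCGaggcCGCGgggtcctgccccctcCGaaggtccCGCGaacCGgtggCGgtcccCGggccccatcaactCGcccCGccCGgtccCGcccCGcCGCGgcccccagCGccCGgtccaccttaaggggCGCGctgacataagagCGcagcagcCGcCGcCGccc
GNRH2: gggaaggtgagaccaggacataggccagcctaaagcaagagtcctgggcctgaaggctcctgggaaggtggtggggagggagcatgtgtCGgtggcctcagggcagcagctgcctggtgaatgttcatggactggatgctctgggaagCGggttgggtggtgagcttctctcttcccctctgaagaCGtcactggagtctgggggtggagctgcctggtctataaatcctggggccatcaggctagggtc
ARAP2: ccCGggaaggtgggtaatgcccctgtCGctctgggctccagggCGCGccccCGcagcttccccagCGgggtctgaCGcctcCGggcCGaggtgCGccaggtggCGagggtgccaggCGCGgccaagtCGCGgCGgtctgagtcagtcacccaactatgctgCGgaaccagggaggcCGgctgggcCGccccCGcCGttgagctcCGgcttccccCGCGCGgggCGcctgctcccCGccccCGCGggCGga
KIF26B: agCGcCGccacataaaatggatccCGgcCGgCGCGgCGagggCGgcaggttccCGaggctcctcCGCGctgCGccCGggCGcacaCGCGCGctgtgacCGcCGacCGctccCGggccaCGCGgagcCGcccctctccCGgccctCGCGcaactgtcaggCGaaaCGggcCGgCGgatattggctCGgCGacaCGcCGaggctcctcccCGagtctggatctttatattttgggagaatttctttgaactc
ZDHHC8 (chr22:20119077-20119326, plus strand), which encodes a protein palmitoyltransferase, and GNRH2 (chr20:3024018-3024267, plus strand), which encodes a gonadotropin-releasing hormone, were lower at 72 h. ARAP2 (chr4:36246137-36246386, minus strand), an Arf GTPase-activating protein, and KIF26B (chr1:245318037-245318286, plus strand), a kinesin-like protein, were higher. The windows held 36 CpG dinucleotides for ZDHHC8, 3 for GNRH2, 30 for ARAP2 and 36 for KIF26B. Among these 4, the number of CpG dinucleotides next to the start did not separate lower from higher promoters. From 2.5 kb before to 2.5 kb after the start, the GC content was 64.7% for ZDHHC8, 56.9% for GNRH2, 44.3% for ARAP2 and 61.4% for KIF26B.

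Over all loops, mean contact was 1.84 at 0 m and 1.67 at 72 h, a log2 change of -0.14 (95% interval -0.15 to -0.14). This sum hides opposite changes, since strong and short loops were lower at 72 h and weak and long loops were higher. Loops of 5 to 10 kb, which join neighbouring 5 kb bins, fell from a mean contact of 13.7 to 10.96, a log2 change of -0.33 (-0.33 to -0.32). Loops of 50 to 100 kb changed by -0.11 and those of 100 to 200 kb by -0.082. Loops of 200000 to 500000 bp had a mean of 0.809 and 0.813, with an interval that included 0 (0.0071, -0.00075 to 0.015). Loops of 1 Mb or more rose from 0.317 to 0.356, a log2 change of 0.17 (0.14 to 0.20).

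The loops were also split by their mean contact at 30 m, 4 h and 16 h, 3 libraries that are not part of the comparison. The 4978 loops called strong here (mean contact 16 or more) had a median length of 5000 bp. Their contact was 27.3 at 0 m and 21.0 at 72 h, a log2 change of -0.38 (-0.39 to -0.37), and 86.7% of them had the lower value at 72 h. The 219766 weak loops, with a mean below 2, had a median length of 300000 bp and went from 0.695 to 0.721, a log2 change of 0.053 (0.048 to 0.058). Their sum was thus higher at 72 h, although 53.7% of the single weak loops had the lower value there. This share includes loops with equal, non-zero read pairs in both libraries, since 1 read pair was worth 0.282 at 0 m and 0.275 at 72 h. It is therefore not the share of weak loops that lost read pairs. Between these ends the change went down with every step of contact, from 0.16 in the weakest of 8 classes to -0.43 in the strongest.

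Length and contact were not the same thing. When the 8 length classes were crossed with the 8 contact classes, 53 cells held at least 20 loops. In all 16 cells with a contact below 1, the contact at 72 h was higher with an interval above 0, also for the shortest loops. Of the 21 cells with a contact of 4 or more, 20 were lower with an interval below 0, and the other included 0. The lowest cell was that of the strongest loops of 20 to 50 kb, at -0.55, and the highest that of the weakest loops of 5 to 10 kb, at 0.72. The order by length given above did not hold within every contact class. With a contact below 0.5 it was reversed, from 0.72 at 5 to 10 kb to 0.18 at 1 Mb or more. At a given length up to 1 Mb, then, strong loops lost contact relative to weak ones. At 1 Mb or more, the 38 loops with a contact of 2 to 4 were at 0.27 (0.030 to 0.52), above the weakest at 0.18. The 510 strong loops of at least 20 kb (19.8 to 15.0, log2 change -0.40) fell as much as the 4468 shorter ones (28.2 to 21.7, -0.38).

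**Figure D1:**
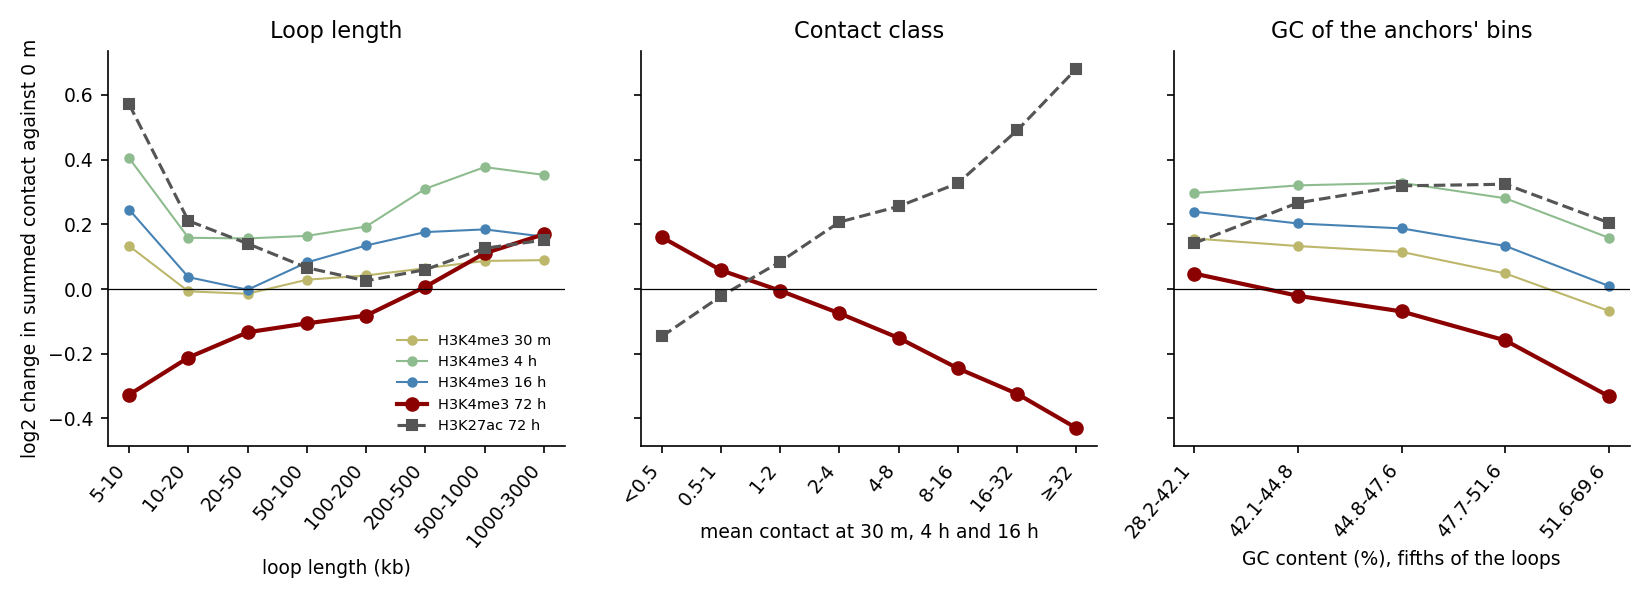
Log2 change in summed contact against 0 m (y axis) by loop length in kb, by mean contact at 30 m, 4 h and 16 h, and by GC content of the anchors' bins in 5 classes. Solid lines are H3K4me3 (72 h in dark red) and the dashed line is H3K27ac at 72 h at the same loops. In H3K4me3 the change at 72 h runs from -0.33 at 5 to 10 kb to 0.17 at 1 Mb or more, and from 0.16 to -0.43 with contact, while H3K27ac runs the other way with contact, from -0.15 to 0.68.

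**Figure D2:**
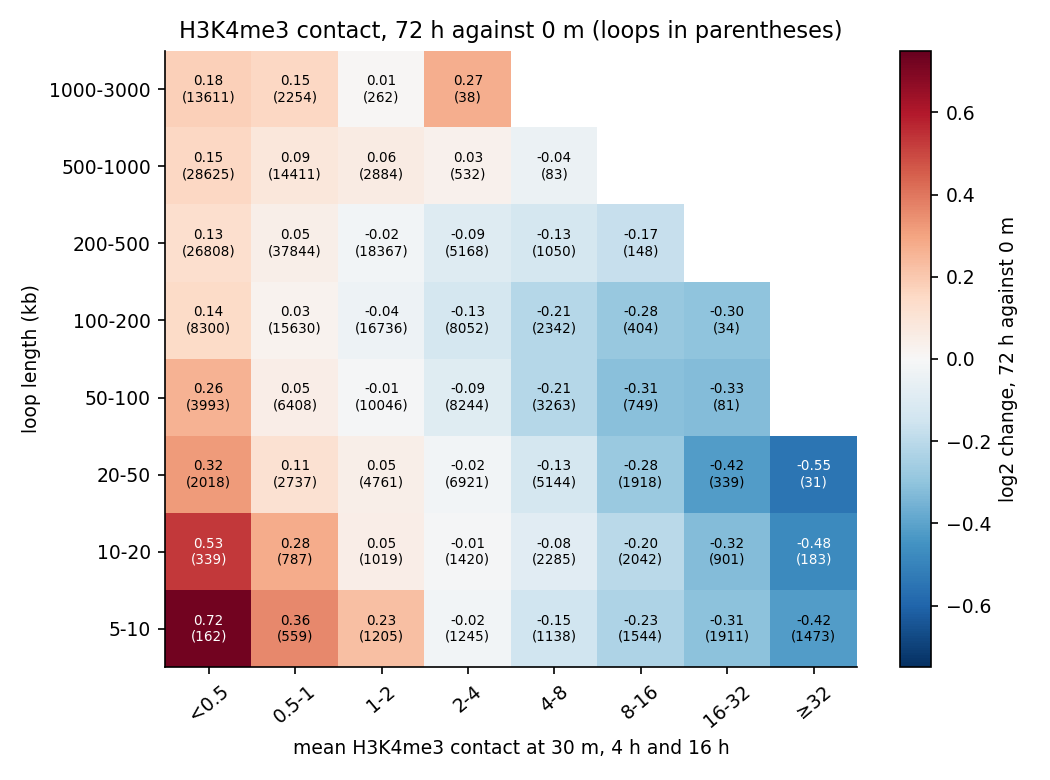
Log2 change in H3K4me3 contact at 72 h against 0 m (colour and upper number) for classes of loop length in kb (y axis) and of mean contact at 30 m, 4 h and 16 h (x axis), with the number of loops in parentheses. Cells under 20 loops are blank. Values are positive in the left columns and negative in the right columns at nearly every length, from 0.72 to -0.55.

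The shape of the libraries moved with this pattern. The 1% of loops with the most read pairs held 19.6% of the read pairs at 0 m and 16.3% at 72 h, against 20.6%, 21.3% and 20.4% at 30 m, 4 h and 16 h. Loops under 20 kb held 37.7% and 34.1%, and loops of 500000 bp or more held 5.16% and 6.19%. Of all loops, 12.9% had no read pair at 0 m and 10.9% had none at 72 h. A difference between these 2 libraries and an effect of the treatment cannot be told apart with 1 library a side.

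The other H3K4me3 time points, which share the 0 m library, did not show lower contact of the shortest loops. At 5 to 10 kb, mean contact over the 5 time points, in order from vehicle to 72 h, was 13.7, 15.1, 18.2, 16.3 and 10.96. The 72 h library alone lay below vehicle in this class. In the same order loops of 1 Mb or more were at 0.317, 0.337, 0.404, 0.354 and 0.356. Since the contact classes were set from the 3 libraries between, their course over time is not compared.

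H3K27ac, a mark of active enhancers and promoters, was measured at the same loops with 1 value for the 2 replicates labelled per time point. Its contact at the strong loops was 13.3 at 0 m and 20.1 at 72 h, a log2 change of 0.59 (0.58 to 0.60). At the weak loops it was 0.530 at both, with an interval of -0.0062 to 0.0062 for the log2 change. At 5 to 10 kb the H3K27ac contact went from 9.59 to 14.3, a log2 change of 0.57, where that of H3K4me3 went down. The marks thus moved in opposite directions at the strong and short loops over the same 72 h, while both had higher values at loops of 1 Mb or more, where H3K27ac changed by 0.15. Over all loops H3K27ac changed by 0.25 and H3K4me3 by -0.14, so relative to its own total H3K27ac was lower at these longest loops and H3K4me3 higher.

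The loops differed by what lay at their ends. Of all loops, 72.2% had a coding promoter at 1 end, 14.3% had 1 at both ends and 13.4% had none, where a promoter spans 2.5 kb before and after the canonical transcript's start. Loops between 2 promoters went from a mean contact of 3.14 to 2.53, a log2 change of -0.31 (-0.32 to -0.30). Loops from a promoter to another site went from 1.70 to 1.59 (-0.098, -0.10 to -0.095) and those without a coding promoter from 1.26 to 1.22 (-0.046, -0.056 to -0.036). Loops between promoters were lower in every length class, from -0.42 at 10 to 20 kb to -0.07 in the longest classes. Scaling both libraries to equal totals adds 0.14 to each log2 change of H3K4me3 at 72 h, which leaves loops between promoters at -0.17 and turns the other 2 kinds to 0.044 and 0.096.

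Base composition at the anchors went with the change as well. Split into 5 classes of like size by the GC content of their 5 kb bins, the loops changed by 0.048, -0.021, -0.069, -0.16 and -0.33 from the lowest to the highest GC class. In the highest class (51.6% GC or more) the mean contact was 2.92 at 0 m and 2.32 at 72 h, and in the lowest (42.1% or less) it was 1.18 and 1.22. The highest class had the lowest change, and the lowest class the highest, within each of the 8 length classes, each of the 8 contact classes and each of the 3 kinds of anchors. Part of this order was also seen at the other time points, which share the 0 m library: the lowest and highest GC classes changed by 0.16 and -0.068 at 30 m, by 0.30 and 0.16 at 4 h and by 0.24 and 0.0093 at 16 h. The mean GC content over read pairs was 48.8% at 0 m, 48.2% at 72 h and between 48.4% and 48.5% at the other 3 time points. In H3K27ac the GC classes changed by 0.14, 0.27, 0.32, 0.32 and 0.20. Within the strongest contact class these values were 0.95, 0.77, 0.89, 0.76 and 0.53, and in the next strongest 0.67, 0.66, 0.62, 0.53 and 0.27, so at strong loops the highest GC class had the lowest change in H3K27ac too. In the weakest contact class it was the lowest GC class, at -0.30. Sites of MboI (GATC), the enzyme that cut the chromatin, had a median of 2.6 to 3.0 per kb in the 5 classes. The part of base composition in the change was not tested.

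Chromosomes rich in genes and GC were lowest. Chromosome 19 changed by -0.32, chromosome 17 by -0.31 and chromosomes 16 and 22 by -0.28 each, with a median GC content of the loops' bins of 50.1% to 52.0%. The highest autosomes were chromosomes 13, 4 and 18, at 0.043, 0.031 and 0.018, with 43.2% to 44.8% GC. Among 1075 regions of 1 Mb with at least 1000 read pairs, 471 had an interval below 0 and 73 above. The lowest was chr19:59000001-60000000, with 2066 read pairs at 0 m and 1414 at 72 h (-0.58, -0.68 to -0.49) and the promoters of TRIM28, UBE2M and CHMP2A. The highest was chr3:187000001-188000000, with 460 and 647 (0.45, 0.28 to 0.63), around BCL6 and LPP.

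Single loops were compared where both libraries together held at least 30 read pairs. Of 23113 such loops, 831 (3.6%) were lower at 72 h by 2-fold or more with an interval excluding no change, and 173 (0.748%) were higher. With both libraries scaled to equal totals the counts were 427 lower and 300 higher, a smaller excess of lower loops. The lower loops had a median anchor GC content of 51.7% and the higher ones of 45.5%, beside 48.4% for all loops compared. Both had a median length of 30000 bp. Promoters stood at both ends in 36.0% of the lower and 13.9% of the higher loops, beside 26.9% of all compared.

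All 89 called loops with at least 100 read pairs were lower, and the largest total of a higher loop was 87 read pairs. Among these 89, the largest fall was in a 25 kb loop on chromosome 11. It joins the promoters of HRAS and LRRC56 (anchor chr11:537001-538000) to those of RASSF7 and LMNTD2 (chr11:562001-563000). HRAS encodes a small GTPase of growth factor signalling. This loop had 80 read pairs at 0 m and 25 at 72 h, a log2 change of -1.72 (-2.43 to -1.05), and contacts of 11.96, 16.5 and 11.8 at 30 m, 4 h and 16 h beside 22.6 and 6.87 at 0 m and 72 h. The loop was picked for its fall from 0 m, so the values between are a description only. Other large falls were in the 20 kb loop from PRPF31 and TFPT on chromosome 19 (88 and 32 read pairs, -1.50) and the 5 kb loop beside PEX10, a peroxisome assembly factor, on chromosome 1 (182 and 72, -1.38). The loops from NHERF1 to NAT9 (78 and 32, -1.32) and from ZBTB32 to KMT2B (82 and 34, -1.31) were lower too. The PEX10 loop was lower in both marks, with 151 and 101 H3K27ac read pairs (-0.74, -1.12 to -0.37).

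Among the higher loops, those with the largest rise were picked out after their values were seen. The first was a 55 kb loop from the promoter of MGST3, a microsomal glutathione transferase, with 6 and 28 read pairs (2.19, 0.89 to 3.75). A 5 kb loop within NDRG1 had 7 and 28 (1.96, 0.73 to 3.40), and a 55 kb loop at NRP1, a semaphorin and VEGF co-receptor, had 8 and 29 (1.82, 0.66 to 3.16). These counts are small and the intervals wide. Both libraries held at least 1 read pair in 78.9% of loops, while 28456 loops had read pairs at 72 h alone and 22905 at 0 m alone. Of these, 24 loops without a read pair at 0 m reached 10 or more at 72 h, while 20 did the reverse.

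For promoters, the contact of all loops of a coding promoter was summed. Of 19869 coding genes, 15396 had an H3K4me3 loop, and 10285 reached 100 read pairs over both libraries and were compared. Their median log2 change was -0.17, with quartiles of -0.35 and 0.016. At 72 h, 639 promoters (6.21%) were lower by 1.5-fold or more with an interval excluding no change, and 71 (0.69%) were higher. Neighbouring promoters share loops, so that these were 549 and 69 distinct sets of loops. With both libraries scaled to equal totals the counts were 212 lower and 191 higher, so the excess of lower promoters rests on the scaling, while the ranking does not. Compared with loops of the same length, contact and GC class, a setting chosen after seeing the data, 88 were lower and 86 higher, of which 82 and 56 were among those above.

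**Figure D3:**
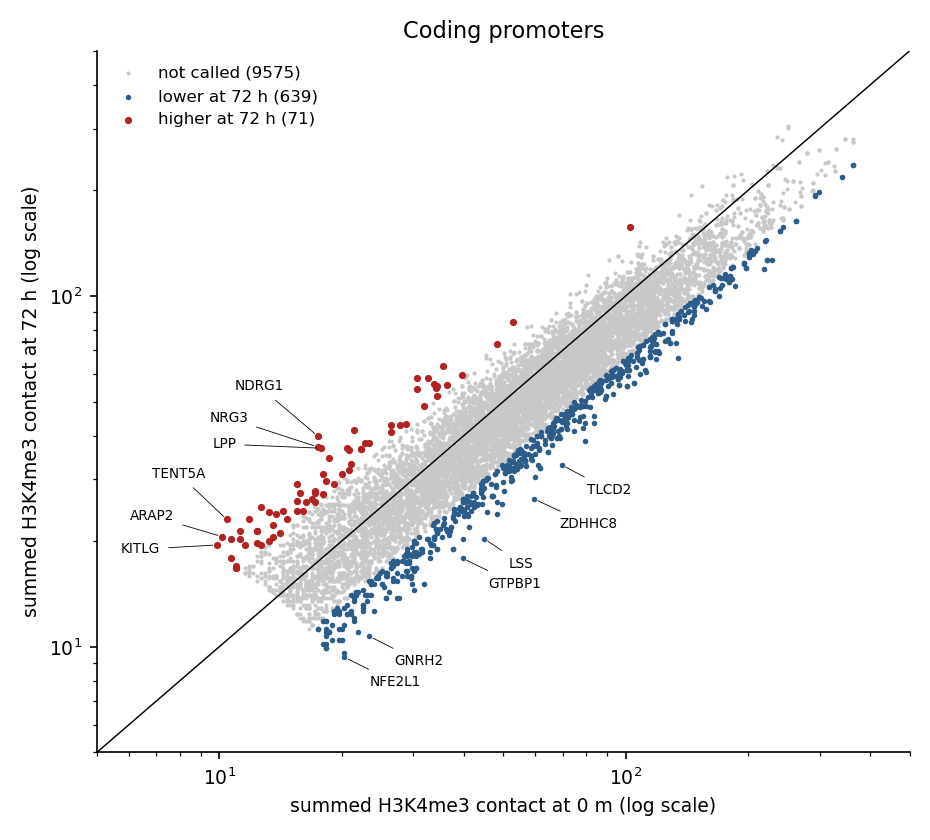
Summed H3K4me3 contact of each of 10285 coding promoters at 0 m (x axis) and 72 h (y axis), both on log scales, with the line of equal contact. The 639 lower promoters (blue) lie along most of the range, but none of the 10 with the most contact at 30 m, 4 h and 16 h is among them. The 71 higher ones (red) lie mostly at low contact, with BAMBI (102 to 157) the strongest of them.

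Lower and higher promoters differed in place and base composition. The lower ones had a median GC content of 56.0% and 48.2% of them lay on chromosomes 16, 17, 19 and 22, beside 23.2% of all promoters compared. The higher ones had 49.1% GC, 4.23% of them lay on those chromosomes, and their median contact at 0 m was 17.5, beside 62.0 for the lower and 53.3 for all. Across 5 classes of promoter GC content, the share of lower promoters went from 0.826% through 1.79%, 4.22% and 8.998% to 15.3%, while that of higher ones stayed between 0.484% and 1.12%. H3K27ac contact gave no mirror image at this level, with a median log2 change of 0.14 at lower, 0.094 at higher and 0.18 at all promoters. Across the 10285 promoters, many of which share loops, the changes of the 2 marks had a Spearman correlation of -0.013, given as a description.

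The largest fall was at ZDHHC8 on chromosome 22, whose summed contact was 59.5 at 0 m and 26.4 at 72 h (211 and 96 read pairs, log2 change -1.17, -1.54 to -0.82). At 30 m, 4 h and 16 h its contact was 49.9, 35.7 and 47.0, and since it was picked for its fall from the shared 0 m library these values are a description only. Of its 12 loops, 10 were lower at 72 h, among them the 5 kb loop into its own gene body (96 and 41 read pairs) and the 10 kb loop to the promoter of TRMT2A (68 and 31). GTPBP1, a GTP-binding protein, followed with 141 and 65 read pairs (-1.15), of which 58 and 19 were in its loop to JOSD1 and 30 and 9 in a 25 kb loop within GTPBP1. In both genes the 2 loops given held the most read pairs over both libraries, so their large loss of read pairs follows from their size.

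LSS, lanosterol synthase of the cholesterol pathway, had contacts, in time order, of 44.8, 29.0, 30.1, 36.3 and 20.3 (-1.14, -1.56 to -0.73), and 18 of its 20 loops were lower at 72 h. Others of the 12 promoters with the largest fall were NFE2L1, a transcription factor for proteasome genes (72 and 34 read pairs), ELOA, a transcription elongation factor (107 and 53), PHKG2, a phosphorylase kinase subunit (281 and 140), CAPN15, a calpain (171 and 87), GNRH2 (83 and 39), TLCD2 (247 and 120), MPP3 (72 and 35) and ANKRD13A (113 and 55). Their log2 changes lay between -1.13 and -1.01. Of the genes, 8 of these 12 lie on chromosomes 16, 17, 19 and 22. All 12 stayed negative when set against loops of the same length, contact and GC class, with NFE2L1 at -1.02 and TLCD2 at -0.59.

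The largest rise was at NDRG1 on chromosome 8, an androgen-induced gene. Its contact in time order was 17.5, 22.5, 20.8, 39.2 and 39.9 (62 and 145 read pairs at 0 m and 72 h, log2 change 1.19, 0.75 to 1.64). Contact at 72 h differed from that at 16 h by 0.022 (-0.30 to 0.34). Of its 15 loops, 13 were higher at 72 h, led by the 5 kb and 20 kb loops within the gene (7 and 28, and 8 and 17 read pairs). H3K27ac contact of the same loops was 16.5 and 16.3 (-0.012, -0.56 to 0.54).

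The other rises were at genes of varied roles. TENT5A, a poly(A) polymerase, had 37 and 84 read pairs (1.15), NRG3, a neuregulin ligand, 62 and 135 (1.09), LPP, a LIM protein of focal adhesions, 63 and 134 (1.05), and ARAP2 36 and 75 (1.02). KITLG, the ligand of the KIT receptor, had 35 and 71 (0.98), CAMK2D, a calcium-dependent kinase, 45 and 91 (0.98), LRRC63 42 and 84 (0.96) and OPRK1, the kappa opioid receptor, 76 and 151 (0.95). KIF26B (40 and 78, 0.93), RTN1, a reticulon (38 and 74, 0.92), and CHST11, a chondroitin sulfotransferase (109 and 212, 0.92), completed the 12. These rises were mostly spread over many weak loops: 28 of 32 loops of NRG3 and 31 of 44 of LPP had the higher value at 72 h, while 1 in each had an interval above 0. Time did not run one way for all. NRG3 had contacts of 17.5, 16.7, 7.53, 21.3 and 37.1 at the 5 time points and CHST11 of 30.7, 43.0, 109, 42.7 and 58.3, so the largest value of CHST11 was at 4 h.

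The 10 promoters with the most contact at 30 m, 4 h and 16 h all had lower values at 72 h. TOB2, an antiproliferative regulator, had 1287 and 1022 read pairs (-0.37, -0.49 to -0.25), and HDGF, a growth factor, 1018 and 727 (-0.52, -0.66 to -0.38), the lowest of the 10. EEF1AKMT4 and ALG3, which share their loops, had 991 and 928 (-0.13, -0.26 to -0.0013), the highest. Between these lay WDR83OS, MRPL49 and FAU, PCGF2, TRMT1 and NACC1, RXRB and SLC39A7, ANKS1A and TAF11, and TNPO2, from -0.48 to -0.20, where promoters joined by and share their loops. Against loops of the same length, contact and GC class, all 10 lay between -0.10 and 0.18. Most of their change was thus shared by loops of their class.

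Genes that androgen is known to induce were looked at as a list of 35, of which 32 had loops and 24 were compared. At 72 h their median log2 change was 0.0034, beside -0.17 for all promoters, with 1 of 24 higher (NDRG1) and 1 lower (NCAPD3, a condensin subunit, 156 and 103 read pairs, -0.64). These shares stand beside 0.69% higher and 6.21% lower in all promoters. KLK3, which encodes prostate-specific antigen, had contacts, in time order, of 39.5, 41.3, 53.4, 123 and 44.8. TMPRSS2, an androgen-driven serine protease, had 82.1, 82.7, 89.9, 251 and 96.2. At both promoters the peak at 16 h was gone at 72 h, when the change from vehicle was 0.18 (-0.15 to 0.52) for KLK3 and 0.23 (0.00069 to 0.46) for TMPRSS2.

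The same course was seen in much of the list. By the same 1.5-fold rule, 14 of the 24 promoters were higher at 16 h than at 0 m, beside 2.4% of all promoters, and 11 were lower at 72 h than at 16 h, beside 9.28%. The 11 included KLK4 (106 at 16 h and 55.2 at 72 h), SLC45A3, a sugar transporter (68.4 and 31.6), UAP1, of the hexosamine pathway (121 and 66.5), PMEPA1 (122 and 73.4), SPDEF, a luminal transcription factor (108 and 58.0), and CAMKK2, a kinase upstream of AMPK (61.3 and 30.5). At 0 m these had 62.6, 31.3, 66.8, 81.8, 64.9 and 37.8, so their contact at 72 h was close to vehicle or below it. EAF2, an elongation factor partner, was still above vehicle, with 200 and 265 read pairs (0.37, 0.10 to 0.64), and ACSL3, an acyl-CoA synthetase, had 100 and 134 (0.39, 0.0006 to 0.77). FKBP5, a chaperone of steroid receptors, had 94 and 83 (-0.22, -0.66 to 0.22), and its contact at 16 h was 25.3 beside 26.5 at 0 m.

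H3K27ac contact of the androgen-induced promoters had a median change of 0.027 at 72 h, beside 0.18 for all. KLK3 had H3K27ac contacts of 112 and 49.5 (-1.18, -1.44 to -0.93) and STEAP2, a metalloreductase, of 189 and 137 (-0.47, -0.64 to -0.30), while ACSL3 changed by 1.01 (0.68 to 1.35). In H3K4me3 STEAP2 had 164 and 206 read pairs (0.29, -0.011 to 0.60). Among androgen-repressed genes, 5 of 12 were compared. OPRK1 was higher, as given above, and PEG3, an imprinted zinc finger gene, was lower, with 91 and 50 read pairs (-0.90, -1.43 to -0.39). Each was 1 of 5 (20%), beside 0.69% higher and 6.21% lower in all promoters. LIFR had 132 and 157 (0.21, -0.13 to 0.56) and CAMK2N1 had 244 and 214 (-0.23, -0.50 to 0.04). No common direction was seen in this list.

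**Figure D4:**
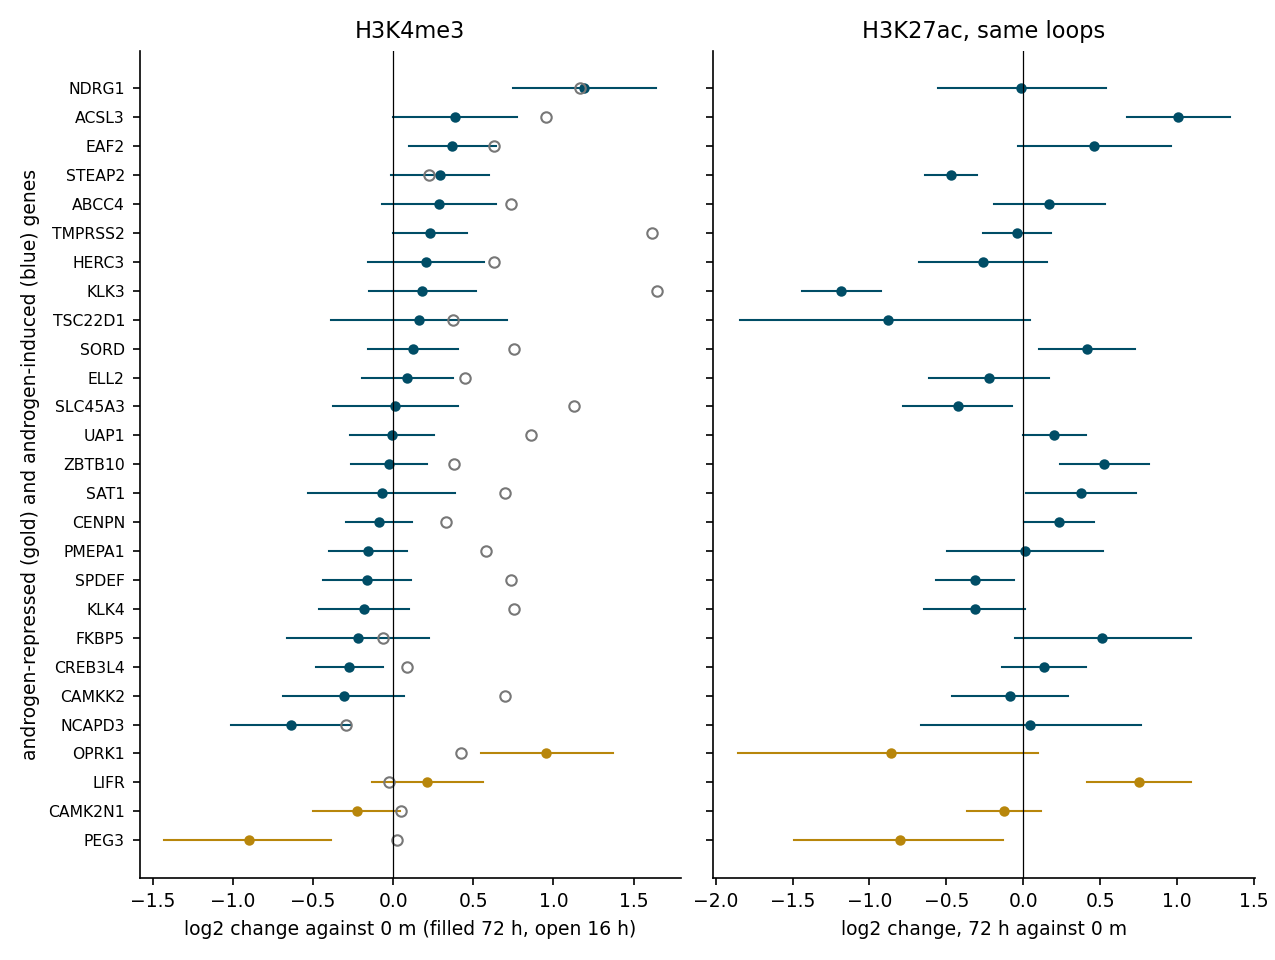
Log2 change against 0 m (x axis) at the promoters of androgen-induced (blue) and androgen-repressed (gold) genes that are reported here, in H3K4me3 (left) and in H3K27ac of the same loops (right). Filled points are 72 h with 95% counting intervals, and open circles are H3K4me3 at 16 h. Most open circles of the induced genes lie to the right of the filled ones, and NDRG1 is the single induced gene at 1.19.

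Genes with a rise in nascent transcription, which the study placed in classes by the time of their highest value, were taken from its source data, and the 72 h class was of first interest here. Of its 137 genes, 93 were compared, with a median of -0.23, 11 lower (11.8%, beside 6.21% of all promoters) and 1 higher (1.08%, beside 0.69%). Against loops of the same length, contact and GC class the median was -0.0083, beside -0.022 for all promoters. The higher one was PLXNA2, a semaphorin receptor (48 and 75 read pairs, 0.61), and the lowest LENG1 (425 and 252, -0.79). The 30 m, 4 h and 16 h classes had medians of -0.20, -0.16 and -0.15 over 39, 60 and 130 promoters. The lowest of the other classes were RAC3 (265 and 161, -0.76), AMIGO3 (369 and 237, -0.68) and SLC44A4 (103 and 58, -0.87). The shares of lower promoters in the 30 m, 4 h and 16 h classes were 12.8% (5 of 39), 5.00% and 6.15%, beside 6.21%, and the median of all promoters was -0.17.

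Transcription factors of luminal cells were split. HOXB13, a homeobox factor of the prostate, had 305 and 195 read pairs (-0.68, -0.95 to -0.42) and was the 1 of 10 called lower, beside 6.21% of all promoters, with 95.4% of its read pairs in the 5 kb loop to PRAC1 and PRAC2. Its H3K27ac contact changed by 0.54. FOXA1, the pioneer factor, had 140 and 190 (0.40, 0.081 to 0.73) and TBX3, a T-box factor, 207 and 299 (0.49, 0.23 to 0.76), neither past 1.5-fold. FOXA1's own strongest loop, to TTC6, held 66 and 64 read pairs, so its higher sum came from its weaker loops. XBP1, GRHL2 and EHF had changes of -0.12, -0.07 and 0.011, with intervals that included 0.

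Of the cofactors of nuclear receptors, 13 were compared with a median of -0.23 and 1 lower (7.69%, beside 6.21% of all promoters). Against loops of the same length, contact and GC class their median was -0.0074. This was EP300, a histone acetyltransferase, with 176 and 93 read pairs (-0.96, -1.34 to -0.59) and 14 of its 15 loops lower. NCOA2, a coactivator, was at the other end with 145 and 187 (0.33, 0.0092 to 0.65). The H3K4 methyltransferases and demethylases had a median of -0.12 over 14 promoters (0.047 against that class). SETD1B was the 1 called lower (199 and 128, -0.67), or 7.14% beside 6.21% of all promoters. KMT2C and ASH2L were highest, at 0.21 each. Of the genes of cohesin and looping, RAD21, a cohesin subunit, was the 1 of 12 called higher (8.33%, beside 0.69% of all promoters), with 102 and 157 (0.59, 0.22 to 0.96). LDB1, an enhancer-bridging factor, had the lowest value (239 and 171, -0.52), and CTCF changed by -0.075 (-0.31 to 0.16).

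Sterol and fatty acid synthesis had the lowest median of the lists, at -0.40 over 24 promoters beside -0.17 for all. Of these, 4 (16.7%, beside 6.21% of all promoters) were lower and 0 higher, and 16 had an interval below 0, as had 3200 of all 10285. Among the lower ones were LSS, MVD, of the mevalonate pathway (611 and 391 read pairs, -0.68), and ACLY, which makes acetyl-CoA (291 and 199, -0.59). SREBF1 (-0.49) and SREBF2 (-0.39), the regulators of the pathway, and the desaturase SCD (-0.50) lay short of 1.5-fold. ACSL3 (0.39), ELOVL5 and ELOVL6 (0.14 each) went the other way. Against loops of the same length, contact and GC class the median was -0.23, so the list stayed below its class, whereas H3K27ac contact of the same promoters had a median of 0.31.

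Immediate early genes, which answer growth signals within minutes, followed with a median of -0.37 over 11 promoters, which was -0.12 against loops of the same length, contact and GC class. Their summed contact changed by -0.18 (-0.25 to -0.10). FOSB (110 and 75, -0.59) and ZFP36, an mRNA decay factor (274 and 176, -0.68), were lower, 18.2% beside 6.21% of all promoters. JUN had 333 and 424 (0.31, 0.10 to 0.52) and KLF6 380 and 474 (0.28, 0.084 to 0.48). Of the 11, 7 had an interval below 0 and 2 above, beside 3200 and 353 of all 10285 promoters. Insulin and IGF signalling had the highest median, at 0.25 over 13, while their summed contact changed by -0.015 (-0.085 to 0.055). Among them TSC2, a brake on mTOR, was the 1 called lower (637 and 400, -0.71), or 7.69% beside 6.21% of all promoters. FOXO1 (94 and 140, 0.54), IRS2 (99 and 144, 0.50), PIK3R1 (272 and 374, 0.42) and IGF1R (118 and 157, 0.37) lay above vehicle without reaching 1.5-fold.

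Cell cycle genes had a median of -0.24 over 27 promoters, which was -0.036 against loops of the same length, contact and GC class. Of these, CDT1, a replication licensing factor, was the 1 called lower (398 and 221, -0.89; 3.70%, beside 6.21% of all promoters) and CCNB1, cyclin B1, was highest (110 and 128, 0.18). The secretory pathway had -0.084 over 22, with CALR, calreticulin, lower (461 and 308, -0.62) and SEC24D, a coat protein, highest (159 and 197, 0.27). Of the steroid-converting enzymes, HSD17B14 was lower (75 and 46, -0.74) and HSD17B4 highest (64 and 88, 0.42), with a median of 0.030 over 6. Polyamine genes had -0.072 over 9, with PAOX lower (80 and 48, -0.77). The promoter called lower was 1 in each of these last 3 lists, or 4.55%, 16.7% and 11.1% of them. AMD1, which supplies the aminopropyl donor, was highest (891 and 1108, 0.28, 0.15 to 0.41), with 412 and 543 read pairs in the 5 kb loop within the gene.

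Cytosolic ribosomal proteins had a median of -0.21 over 75 promoters, with 7 (9.33%) lower and 0 higher, and of -0.034 against loops of the same length, contact and GC class. RPL7A (340 and 211, -0.73) was lowest and RPL15 (277 and 353, 0.31) highest. Nuclear genes of oxidative phosphorylation had -0.17 over 81, with 5 (6.17%) lower, from NDUFV1 (98 and 50, -1.01) to NDUFS4 (90 and 135, 0.55). The zinc finger genes of chromosome 19 had -0.18 over 206, with 7 (3.40%) lower, from ZNF229 (131 and 78, -0.79) to ZNF606 (145 and 207, 0.48). Replication-dependent histones had -0.050 over 39, with H2AC11 and H2BC11, which share a promoter, lower (107 and 73, -0.59) and H1-6 highest (58 and 85, 0.51). HOX genes had -0.12 over 8, with HOXB13 lowest. Beside 6.21% of all promoters, the shares of lower ones in these large families do not mark them out.

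**Figure D5:**
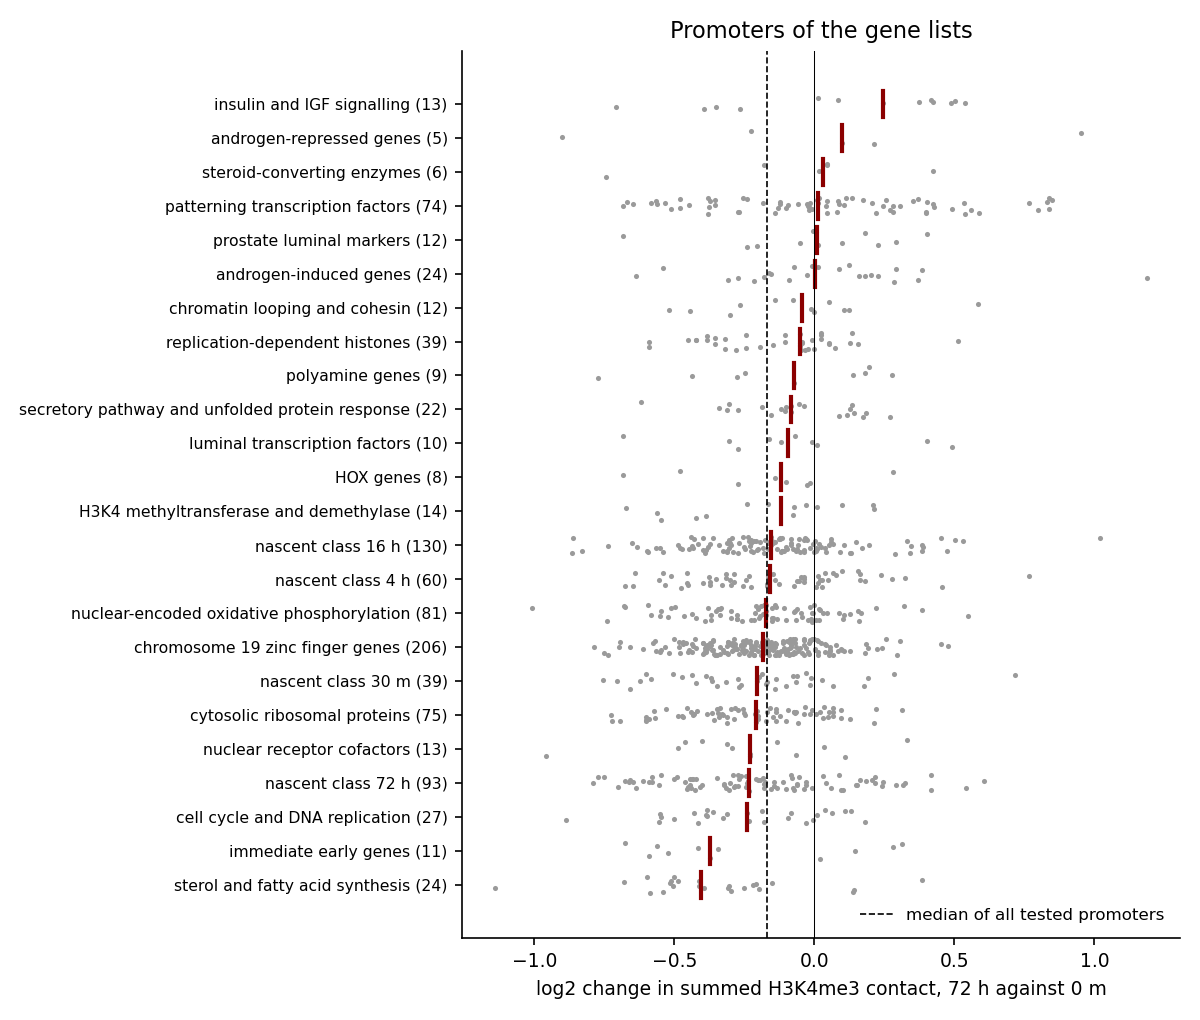
Log2 change in summed H3K4me3 contact at 72 h against 0 m (x axis) for each compared promoter (grey points) of each gene list, with the number compared in parentheses, the list median (red bar) and the median of all promoters (dashed line, -0.17). Medians run from -0.40 for sterol and fatty acid synthesis to 0.25 for insulin and IGF signalling, and single promoters spread more widely than the medians.

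Several of the 71 higher promoters belong to transcription factors that pattern tissues in the embryo. A list of such families by symbol was drawn up after these values were seen and is a description only. Of its 250 genes, 74 were compared, with a median of 0.014, 7 higher (9.46%, beside 0.69% of all promoters) and 3 lower (4.05%, beside 6.21%). SOX9, a factor of prostate and cartilage development, had 73 and 134 read pairs (0.84, 0.42 to 1.27), TOX3 116 and 213 (0.84, 0.51 to 1.18), TSHZ3 126 and 230 (0.83, 0.51 to 1.16) and ZIC2 74 and 132 (0.80, 0.38 to 1.23). EOMES, a T-box factor, had 40 and 74 (0.85, 0.28 to 1.44). FOXA3 (84 and 55, -0.65) and POU5F1 (76 and 49, -0.67) were lower beside HOXB13. The levels of the higher ones were low, with summed contacts of 11.3 to 35.5 at 0 m among SOX9, TOX3, TSHZ3, ZIC2 and EOMES, and their H3K27ac contact changed by -0.052, 0.68, -0.28, 1.32 and -0.37.

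Within a promoter, contact at 72 h was spread more evenly over its loops. Of 10027 compared promoters with at least 5 loops, 85.6% had the same strongest loop in both libraries, so the main partner was mostly kept. The strongest loop of each library held a median of 28.7% of the promoter's read pairs at 0 m and 26.3% at 72 h. The Gini coefficient, which is 0 when all loops are equal, had a median of 0.612 at 0 m and 0.587 at 72 h and was lower at 72 h in 70.5% of promoters. This is the promoter-level view of strong loops losing contact and weak ones gaining it, in libraries that differ as a whole in the same way.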

How the data were processed

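The values analysed are contact frequencies of H3K4me3 HiChIP at 0 m and 72 h, with 30 m, 4 h, 16 h and H3K27ac at 0 m and 72 h for comparison. The authors trimmed reads (Trim Galore 0.5.0), aligned them to hg19 (HiC-Pro 3.1.0), called loops with FitHiChIP in 5 kb bins at q below 0.01 on the merged reads of a mark, and deposited for each loop a signal scaled by TMM among time points. Calling on merged reads gives all libraries the same loops. Deposited signal values were whole multiples of the smallest one in 100% of cases (tolerance 0.001), and read pairs were recovered by division. For H3K27ac, 1 deposited value stands for the 2 labelled replicates.

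A promoter took each loop whose deposited 1 kb anchor overlapped a window of 2.5 kb before and after the Ensembl canonical transcript start (Gencode release 44 lifted to GRCh37). Log2 changes are ratios of summed contact, with exact (Clopper-Pearson) 95% intervals of the read pairs. With 1 library a side, called means 1.5-fold and 100 read pairs for promoters, or 2-fold and 30 read pairs for loops, with an interval excluding no change. The genes named are the 12 called promoters with the largest fall and the 12 with the largest rise, members of the androgen lists with 100 read pairs, the 10 promoters with most contact, the 6 loops with the largest change each way among those with 100 read pairs, and the extremes of other lists. Further members of lists, and the higher loops, were named after their values were seen. Members and lists were chosen with earlier results of these data known. The methods were tested on simulated data. Alternatives varied scaling, loop length, loop set, classes, thresholds and promoter windows. Some genes and gene sets are not reported here. Scripts ran in Python 3.11.15 with scipy 1.17.1, pandas 2.3.3 and numpy 2.4.6.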

Additional observations from a re-analysis of the deposited data

How the results depend on the processing

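Of 71 recomputed values of 14 results, 24 stayed within their counting interval or within 1.5 times the count, 43 moved further and 4 changed sign. The counting intervals are narrow, so small shifts count as moves. Equal totals put the change of all loops at 0.00 by construction and gave -0.24 for strong loops, 0.20 for weak loops, -0.18 at 5 to 10 kb, 0.26 at 500000 bp or more, -0.17 between promoters, and reversed 0.10 without a promoter and 0.044 from a promoter to another site. Loops of at least 20 kb gave -0.061 over all loops, -0.40 for strong loops, -0.019 from a promoter to another site, -0.25 between promoters and a reversed 0.025 without a promoter. Loops of the H3K4me3 set alone gave -0.065 over all loops, -0.36 for strong and 0.077 for weak loops, -0.28 at 5 to 10 kb and 0.14 at 500000 bp or more. Classes set from 0 m, which is one side of the comparison, gave -0.42 for strong and 0.18 for weak loops, and classes set from H3K27ac at 0 m gave -0.45 and a reversed -0.0017. In the alternatives run, the change of strong, shortest and promoter-to-promoter loops was negative each time.

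Lower loops numbered 427 and higher ones 300 with equal totals, and 230 and 5 with at least 60 read pairs, since fewer loops are then compared. Lower promoters numbered 212 with equal totals, 381 with loops of at least 20 kb, 423 with the H3K4me3 set alone, 384 with at least 300 read pairs, 384 without the strongest loop, 353 with a 1 kb window, 148 against loops of the same length and contact class and 88 when GC was added. Higher promoters numbered 191, 13 and 47 with equal totals, 300 read pairs and the 1 kb window, and 86 to 96 in the other settings that changed the set of loops or the reference, except 78 with the 5 kb bin, 74 with the filter on other time points and 64 with the outermost gene start. The last start and the GC class were chosen after seeing the data.

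The androgen-induced median (0.0034) became 0.15 with equal totals, 0.081 with loops of at least 20 kb, 0.14 against length and contact class and 0.12 with GC. The median of the 72 h nascent class (-0.23) became -0.090, -0.14, -0.062 and -0.0083 in the same settings, -0.16 with the H3K4me3 set alone and -0.15 without the strongest loop. For these moves the cause was not tested beyond what the settings themselves change.

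No paired analysis was possible because each H3K4me3 time point has 1 library and the H3K27ac tables hold 1 column for both replicates. For the same reason leaving out a replicate was not run. Depth limits single loops, at a median of 3 read pairs, and promoters under 100 read pairs, among them KLK2, were not compared.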
